A study of Homo sapiens with 6 samples.

Results

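Chromosome 8 carried 21430 of the 380031 PAI-1 peaks found in 4 chromatin immunoprecipitation (ChIP) libraries of bladder cancer cells, and its arms stood on opposite sides of the genome's mean. All peaks on this chromosome were taken, with identical intervals in a library counted once. RT112 replicate 1 had 6103 of them, RT112 replicate 2 had 3902, UM-UC-3 replicate 1 had 5578 and UM-UC-3 replicate 2 had 5847. These were 6.33%, 6.48%, 5.10% and 5.12% of the peaks of those libraries. The short arm, 8p, was counted up to the assembly gap at the centromere, and the long arm, 8q, after it. No peak lay in the 3 Mb between them, of which nearly all is gap in the assembly.

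RT112 and UM-UC-3 are established human bladder cancer cell lines, each derived from the tumor of a single patient. ChIP was done on their nuclear extracts with an antibody against endogenous PAI-1 (plasminogen activator inhibitor-1), and 2 libraries per cell line, labelled as biological replicates, had peak lists. The study asked where PAI-1 is found on chromosomal DNA. The 2 input libraries were not analysed here. A difference between the groups is therefore one between 2 particular cell lines.

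PAI-1 is a secreted inhibitor of the urokinase-type and tissue-type plasminogen activators, and it is also seen in the nucleus of some tumor cells. Chromosome 8 is one of the chromosomes most often changed in urothelial cancer, with loss of 8p and gain of 8q as the usual pattern. The outer part of 8p holds several candidate tumor suppressors, and band 8q24 at the end of the long arm is a frequent target of gains. More copies of a region give more reads from it in a ChIP library as well as in an input library. The number of copies of each arm in these cells was not measured here, so its part in the values below was not tested.

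The lists hold no read counts, and sequencing depth is therefore unknown. Autosomal peaks per Mb numbered 33.7 and 21.1 in RT112, and UM-UC-3 had 38.8 and 40.4. Densities are therefore given as relative density, the peaks per Mb of known sequence divided by the mean over chromosomes 1 to 22 of the same library, so that 1 is the autosomal mean. Values set in a row follow the order RT112 replicate 1, RT112 replicate 2, UM-UC-3 replicate 1 and UM-UC-3 replicate 2. Means are given ± SD with n = 2 libraries per cell line.

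Chromosome 8 as a whole was dense in RT112 and average in UM-UC-3. Its relative density was 1.27, 1.30, 1.01 and 1.01. It ranked 2 among the 22 autosomes in both RT112 libraries, behind chromosome 20, but only 11 and 10 among them in UM-UC-3. RT112 averaged 1.28 ± 0.0210 and UM-UC-3 1.01 ± 0.00349, a difference of -0.272 (UM-UC-3 minus RT112). Neither RT112 library overlapped the range of the UM-UC-3 libraries. The exact two-sided permutation test gave p = 0.333, the smallest value that 2 libraries against 2 allow, so this test cannot reach 0.05 for any single measure below.

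On 8p, peaks were sparse in every library, and sparser in RT112. This arm held 980, 596, 1290 and 1314 peaks on 43.7 Mb of sequence. The relative density was 0.665, 0.648, 0.761 and 0.744, below 1 in all 4 libraries. The cell lines did not overlap, with means of 0.656 ± 0.0125 in RT112 and 0.753 ± 0.0126 in UM-UC-3 and a difference of 0.0961 (exact permutation test, p = 0.333).

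On 8q, peaks were more frequent than the mean in every library, and most frequent in RT112. The 99.2 Mb of sequence on this arm held 5123, 3306, 4288 and 4533 peaks. The relative density was 1.53, 1.58, 1.12 and 1.13, and again the cell lines did not overlap. RT112 averaged 1.56 ± 0.0357 and UM-UC-3 averaged 1.12 ± 0.0106, which differed by -0.435 (exact permutation test, p = 0.333).

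The ratio of the 8q density to the 8p density within a library does not use the autosomal mean. It was 2.30, 2.44, 1.46 and 1.52. The RT112 mean was 2.37 ± 0.0995 and the UM-UC-3 mean 1.49 ± 0.0392. So 8q was denser than 8p in all 4 libraries, and the contrast between the arms was the larger in RT112. The difference of -0.881 between the cell lines exceeded the spread between replicates in both (exact permutation test, p = 0.333).

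**Figure D1:**
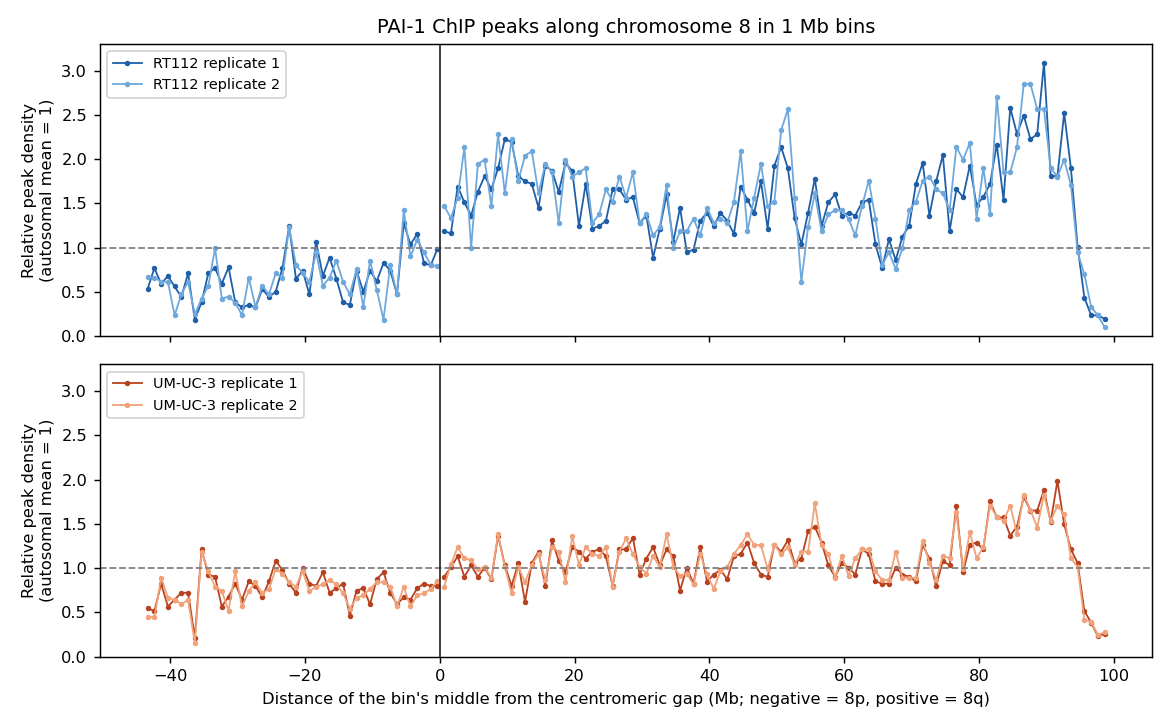
Relative peak density (y axis, autosomal mean = 1) of the 143 bins of 1 Mb along chromosome 8 against distance from the centromeric gap in Mb (x axis), with a line for each library and RT112 in the upper panel. The RT112 libraries step up from a mean of 0.656 on 8p to 1.56 on 8q, the UM-UC-3 libraries from 0.753 to 1.12, and all 4 fall off at the far end of 8q.

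The position of these arms among all others was examined in a fit with limma over the 39 autosomal arms. Of these arms 17 were called higher in UM-UC-3 (43.6%) and 14 higher in RT112 (35.9%) at an adjusted p below 0.05, so a called arm was common. 8p was called higher in UM-UC-3, with a log2 ratio of 0.20 (SE 0.0342, limma adjusted p = 3.51e-07). It ranked 37 of 39 by density in RT112, and its rank in UM-UC-3 was 34. 8q was called higher in RT112, with a log2 ratio of -0.47 (SE 0.0180, limma adjusted p = 4.16e-39). It ranked 3 in RT112, where only 20p and 20q were denser, and 7 in UM-UC-3. These p-values rest on a spread pooled over arms and cover only the spread between these libraries. With the replicate number as a term in the model, which leaves fewer degrees of freedom, the adjusted p was 0.00453 for 8p and 0.00131 for 8q.

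The opposite signs of the arms gave chromosome 8 one of the wider gaps between arms. The log2 ratio on 8q minus that on 8p was -0.67. By size this ranked 3 among the 17 chromosomes with both arms in the fit, after chromosomes 4 and 19. This rank is a description and was not tested.

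**Figure D2:**
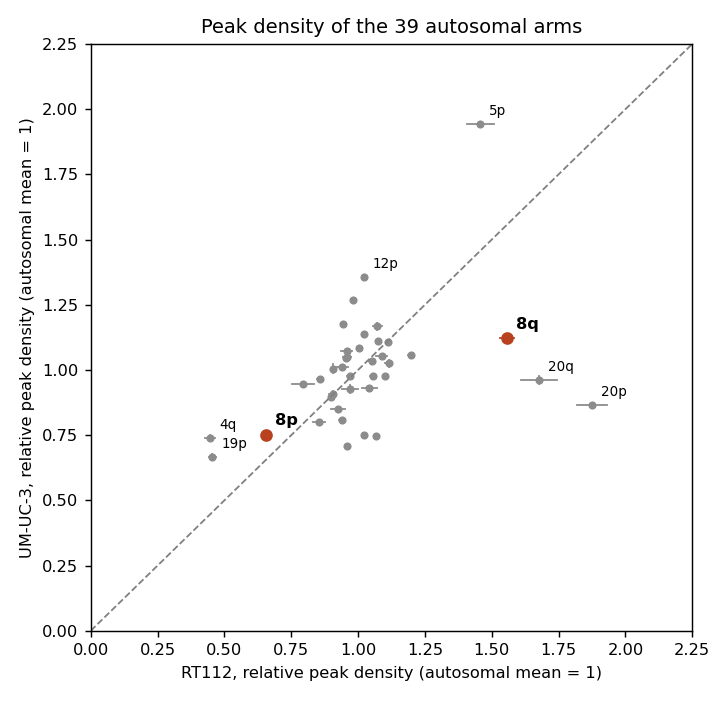
Relative peak density of the 39 autosomal arms in RT112 (x axis) and UM-UC-3 (y axis), where points are means of 2 libraries, lines join the library values and the dashed line marks equal density. 8p (0.656 and 0.753) lies low in both cell lines and just above the line, and 8q (1.56 and 1.12) lies well below the line, close to 20q and 20p.

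The arms also differ in sequence. 8p has a GC content of 41.5% and 6.50 protein-coding genes per Mb, and 8q has 39.6% and 4.28 genes per Mb. The peaks of RT112 were the richer in GC, with autosomal medians of 42.2% and 42.6%, while those of UM-UC-3 had 40.2% in both libraries. On chromosome 8 the medians were 41.1%, 41.3%, 39.8% and 39.5%. Thus the more gene-rich arm with the higher GC content had the fewer peaks in both cell lines. The part of GC content in the difference between the arms was not tested.

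In bins of 1 Mb the difference between the cell lines was spread along most of 8q. Of the 143 chromosome 8 bins, 62 were called higher in RT112 (43.4%, against 18.5% of the 2694 autosomal bins) and 12 higher in UM-UC-3 (8.39%, against 21.4%). On 8q, 58 of 99 bins were called higher in RT112 (58.6%) and 1 higher in UM-UC-3 (1.01%), with a median log2 ratio of -0.43. On 8p, 4 of 44 bins were called higher in RT112 (9.09%) and 11 higher in UM-UC-3 (25%), with a median of 0.24. The share called higher in UM-UC-3 on 8p was thus near the 21.4% of all autosomal bins. The median over all autosomal bins was 0.04. Both RT112 libraries lay above both UM-UC-3 libraries in 85 chromosome 8 bins (59.4%, against 33.0% of all bins), and the reverse held in 28 (19.6%, against 39.0%). With either UM-UC-3 library left out, far fewer chromosome 8 bins were called in both directions. With either RT112 library left out, more were called in both directions. The shares of all autosomal bins called in these fits are not given. They therefore do not show whether chromosome 8 stands apart from the genome. The cause of these changes was not tested.

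**Figure D3:**
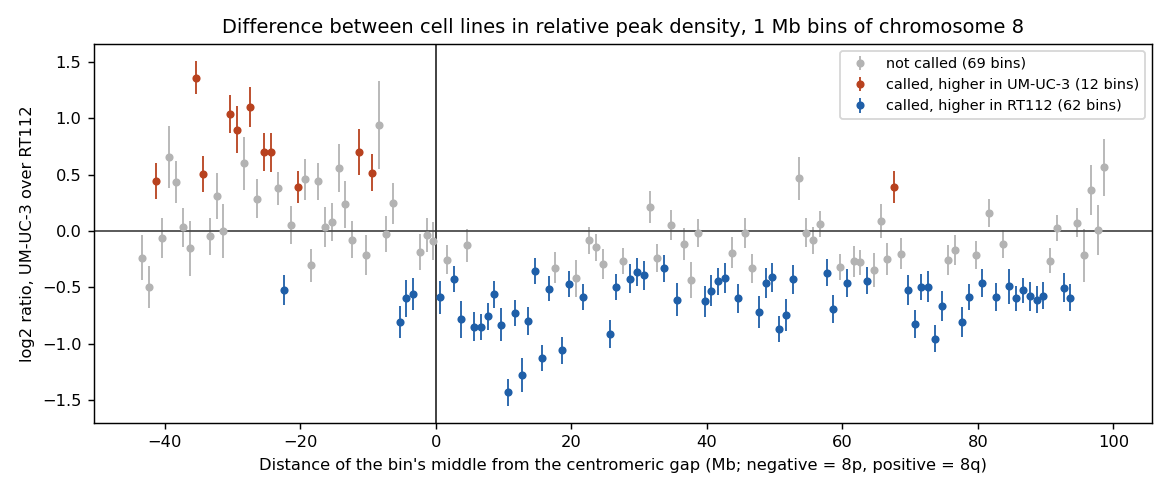
Log2 ratio of relative peak density, UM-UC-3 over RT112 (y axis), for the 143 bins of 1 Mb against distance from the centromeric gap in Mb (x axis), with error bars for the SE from limma and color for bins called at an adjusted p below 0.05. The 62 bins called higher in RT112 cover most of 8q, and 11 of the 12 called higher in UM-UC-3 are on 8p. These 11 are 25% of the 8p bins, against 21.4% of all autosomal bins.

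The largest excess in RT112 lay on the part of 8q next to the centromere. Between 50 and 60 Mb the relative density was 1.79, 1.85, 0.959 and 1.01. Of the 10 bins there, 9 were called higher in RT112, against 18.5% of all autosomal bins. Both RT112 libraries lay above both UM-UC-3 libraries in 33.0% of all autosomal bins. The longest run of such bins on chromosome 8 was 26 bins, from 52 to 78 Mb. It was picked on these values, so its means of 1.70 and 1.07 are only a description. The 3 called bins with the lowest log2 ratios were all in this stretch. The bin from 57 to 58 Mb, which holds PLAG1 (a zinc finger transcription factor) and PENK (the precursor of enkephalins), had 2.19, 2.23, 0.800 and 0.717, a log2 ratio of -1.43 (SE 0.116, limma adjusted p = 2.31e-05). The bin from 59 to 60 Mb, with TOX (an HMG-box protein of T cells) and CYP7A1 (the rate-limiting enzyme of bile acid synthesis), had 1.75, 2.04, 0.619 and 0.841, and a log2 ratio of -1.28. The bin from 62 to 63 Mb, with ASPH (a hydroxylase of aspartate and asparagine residues), had 1.93, 1.95, 0.800 and 0.865, and a log2 ratio of -1.13. In all 3 bins RT112 was near 2 times the autosomal mean while UM-UC-3 was below that mean.

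The largest excess in UM-UC-3 lay on outer 8p. Between 10 and 20 Mb the relative density was 0.501, 0.525, 0.788 and 0.765. Of the 10 bins there, 5 were called higher in UM-UC-3, against 21.4% of all autosomal bins. The bin from 8 to 9 Mb, with MFHAS1 and CLDN23 (a claudin of tight junctions), had 0.386, 0.427, 1.21 and 1.19, a log2 ratio of 1.36 (SE 0.145, limma adjusted p = 0.000107). The bins from 13 to 14 Mb and from 16 to 17 Mb, with DLC1 and MSR1, had log2 ratios of 1.04 and 1.099. RT112 was below 0.5 times the autosomal mean in each of these 3 bins. Toward the centromere the difference over blocks of 10 Mb shrank, and from 30 to 40 Mb the libraries of the cell lines overlapped at 0.733, 0.674, 0.704 and 0.707. Single bins in that block still differed in both directions, with 2 of 10 called higher in UM-UC-3 and 2 higher in RT112. These counts were close to the shares over all autosomal bins, 21.4% and 18.5%.

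Few bins were called against the direction of their arm, but on 8p the direction was mixed. There the log2 ratio was above 0 in 27 bins and below 0 in 17, while on 8q it was above 0 in 12 and below 0 in 87. Both RT112 libraries lay above both UM-UC-3 libraries in 8 of the 44 bins of 8p, against 33.0% of all autosomal bins. The reverse held in 21, against 39.0% of all autosomal bins. On 8p the 4 bins called higher in RT112 were 21 to 22 Mb and the 3 neighboring bins from 38 to 41 Mb. The bin from 38 to 39 Mb, which holds FGFR1, had 1.28, 1.42, 0.671 and 0.791 and a log2 ratio of -0.81 (limma adjusted p = 0.00148). From 38 to 43 Mb all 5 bins had both RT112 libraries above both UM-UC-3 libraries, with means of 1.03 and 0.725. On 8q the only bin called higher in UM-UC-3 was 114 to 115 Mb, in which CSMD3 begins, with 0.860, 0.760, 1.01 and 1.19 and a log2 ratio of 0.39 (limma adjusted p = 0.0474). These bins were singled out after their values were seen.

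Band 8q24 was denser than 8p and than the rest of 8q taken whole in all 4 libraries, although the block from 50 to 60 Mb was denser still in RT112. It was taken from the start of UTP23, at chr8:117778744, to the end of the chromosome, which is 28.4 Mb of sequence. It held 1606, 1033, 1387 and 1433 peaks. The relative density was 1.68, 1.73, 1.26 and 1.25, with means of 1.70 ± 0.0351 in RT112 and 1.25 ± 0.00850 in UM-UC-3 and a difference of -0.449 (exact permutation test, p = 0.333). Of its 28 bins, limma called 16 higher in RT112 (57.1%, against 59.2% on the rest of 8q and 18.5% of all autosomal bins) and 0 higher in UM-UC-3 (against 21.4% of all autosomal bins). At an unadjusted p below 0.05 these counts were 17 and 1.

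The excess of 8q24 over the rest of 8q was much the same in both cell lines. The ratio of the densities was 1.14, 1.13, 1.19 and 1.15. The means of 1.14 ± 0.00383 and 1.17 ± 0.0280 differed by 0.0365, little more than the spread in UM-UC-3 (exact permutation test, p = 0.333). So the higher density of RT112 on 8q24 was matched by the rest of the arm, where the relative density was 1.47, 1.52, 1.06 and 1.08.

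Within 8q24 the peaks were concentrated between 130 and 140 Mb. There the relative density was 2.26, 2.24, 1.64 and 1.62, the highest of the 15 blocks of 10 Mb in all 4 libraries. The densest single bins of RT112 lay at 136 to 137, 133 to 134 and 134 to 135 Mb, and those of UM-UC-3 were 136 to 137, 138 to 139 and 133 to 134 Mb. The bin from 136 to 137 Mb, with KHDRBS3 (an RNA-binding protein of the STAR family) as its only protein-coding gene, led in both, at 3.08, 2.56, 1.88 and 1.83. The bin from 138 to 139 Mb holds no protein-coding gene and did not differ beyond the spread, at 1.81, 1.80, 1.99 and 1.71 (limma adjusted p = 0.881).

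Beyond 140 Mb the density dropped in every library. In the last 6.15 Mb of sequence it was 0.704, 0.733, 0.691 and 0.643. This end of the chromosome has 111 protein-coding genes and a GC content of 51.5%, against 21 genes and 41.0% in the 10 Mb before it. The bin from 144 to 145 Mb had only 8, 5, 9 and 10 peaks, and the next bin had 6, 2, 9 and 10. On 8p the bin from 7 to 8 Mb was also sparse, with 6, 5, 8 and 6 peaks. It lies over the beta-defensin and FAM90A gene families, whose near-identical copies make the placement of short reads uncertain. The part of these copies in the low count was not tested.

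The profile of the bins was alike in the 2 libraries of a cell line and only partly shared between the cell lines. Over the 143 bins, Pearson's r was 0.91 between the RT112 libraries and 0.94 between the UM-UC-3 libraries. Between a library of RT112 and a library of UM-UC-3 it was 0.69 to 0.76. Within 8p alone the values between cell lines were 0.11 to 0.18 over 44 bins, and within 8q they were 0.60 to 0.68 over 99 bins. Neighboring bins are not independent, and all bins of a library share its peak caller settings and depth, so these are descriptions.

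Peaks were strongest on 8q24. The score of a peak is on the -log10 scale of the caller's p-values or q-values, and scores were compared within a library only. A score of at least 10 was reached by 9.18%, 8.39%, 8.76% and 9.82% of the peaks on 8p, close to the autosomal shares of 10.1%, 8.75%, 9.17% and 9.20%. On 8q24 the shares were 14.4%, 12.8%, 11.2% and 12.1%, the highest region in each library. On the rest of 8q they were 12.2% and 10.03% in RT112 but 9.20% and 8.77% in UM-UC-3. The median score of chromosome 8 exceeded the autosomal median by 0.347 in RT112 replicate 1 and equalled it in the other 3 libraries, where many peaks share the same score.

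**Figure D4:**
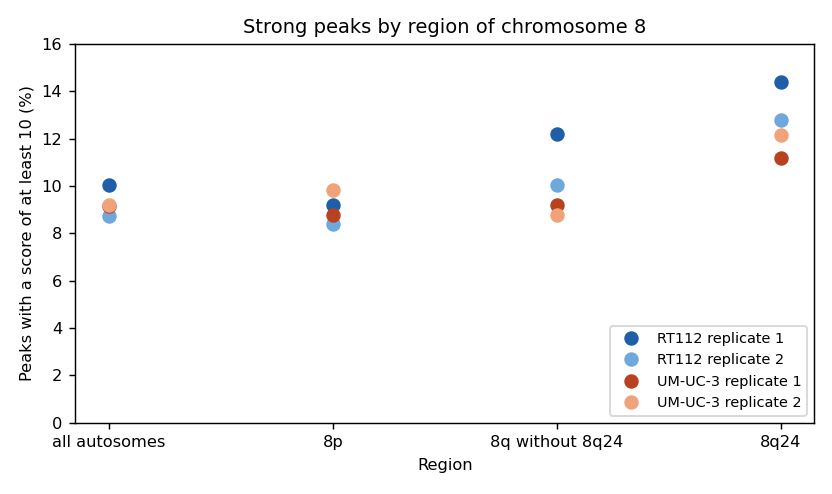
Share of peaks with a score of at least 10 (y axis, %) for all autosomes, 8p, 8q without 8q24 and 8q24 (x axis), with a point for each library. The shares lie between 8.39% and 10.1% on the autosomes and 8p, and rise to 11.2% to 14.4% on 8q24.

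Peaks were about as wide as elsewhere, with medians of 296, 268, 274 and 271 bp against autosomal medians of 293, 264, 274 and 270 bp. A peak was refound when it shared at least 1 bp with a peak of the other replicate. This held for 40.4%, 63.3%, 75.3% and 71.8% of chromosome 8 peaks, which was 2.20, 2.08, 0.468 and 0.0955 percentage points above the autosomal shares. The lower share in RT112 replicate 1 goes with its larger list. Of 2463 refound peaks in RT112, 41.7% had both ends within 1 bp of the ends of a peak in the other replicate. In UM-UC-3 this held for 69.9% of 4199. How far the replicates are independent was not tested, so the SDs and limma p-values may understate the spread between independent libraries. Few peaks were shared between the cell lines, since only 4.46% to 6.66% of a library's peaks overlapped any from a library of the other cell line. Regions with a peak in all 4 libraries numbered 12 on 8p and 123 on 8q, of which 51 were on 8q24. Every library also had more peaks on 8q than on 8p, but by a smaller factor. RT112 replicate 1 had 5123 against 980, and UM-UC-3 replicate 1 had 4288 against 1290. A larger share of the peaks on 8q thus lay in such regions. Peaks in such regions were 2.21%, 3.41%, 2.42% and 2.31% of those on chromosome 8. The autosomal shares were 2.19%, 3.41%, 1.86% and 1.79%, so RT112 did not differ from the autosomes in this.

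The best-ranked peaks found in both replicates of a cell line were mostly far from genes. In RT112 they were chr8:21487870-21488201 on 8p (scores 46.6 and 39.6), at 59.7 kb from GFRA2, a receptor for neurturin, chr8:140502803-140503228 (44.7 and 41.0), at 109.9 kb from KCNK9, a potassium channel gene, and chr8:98168045-98168598 (46.6 and 35.2), at 6.16 kb from CPQ, a carboxypeptidase. In UM-UC-3 they were chr8:136426609-136426864 (52.8 and 61.6), at 42.8 kb from KHDRBS3, chr8:130487827-130488183 (46.2 and 50.4), in an intron of the long non-coding RNA CCDC26, and chr8:21329862-21330273 (52.8 and 46.1), at 217.6 kb from GFRA2. None of these 6 peaks was found in either library of the other cell line. Absence was usual, since only 4.46% to 6.66% of a library's chromosome 8 peaks overlapped a library of the other cell line. Distances are to the nearer end of the nearest protein-coding gene, and the other 5 peaks lay outside all annotated genes.

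Among the regions with a peak in all 4 libraries, the highest lowest score was at chr8:7622538-7623035 (27.9, 24.02, 33.6 and 25.6), 0.675 kb from FAM90A9. This is the repetitive stretch of 8p named above, so its position is uncertain. The next were chr8:94431959-94432593 (29.7, 20.5, 46.2 and 48.3), near a transcript start within the long non-coding RNA CIBAR1-DT, and chr8:65391536-65391861 (16.1, 13.9, 18.2 and 18.1), at 101.1 kb from BHLHE22, a neuronal transcription factor.

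By location, the arms differed mainly in promoters, counted as 3 kb on either side of a transcript start. Promoters held 15.1%, 16.9%, 17.1% and 17.1% of the peaks on the gene-rich 8p and 11.9%, 11.6%, 12.1% and 12.5% of those on 8q. Introns held 46.7% ± 2.48 on 8p and 48.7% ± 0.777 on 8q in RT112, and for UM-UC-3 the shares were 47.5% ± 0.348 and 49.6% ± 0.267. Intergenic sequence held 34.7% ± 1.20 on 8p and 37.2% ± 0.113 on 8q in RT112, and its shares in UM-UC-3 were 32.1% ± 0.0926 and 35.7% ± 0.183. Exons held under 4% on either arm.

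Of the 708 protein-coding genes of chromosome 8, 56.4%, 49.3%, 58.1% and 60.7% had a peak inside them or up to 3 kb away. The autosomal shares were 53.9%, 44.5%, 59.1% and 59.9%. A peak was found in all 4 libraries for 272 genes and in none for 200. Genes with the most peaks were long. ZFPM2, a cofactor of GATA factors in heart development that spans 1214 kb at chr8:105602961-106816767, had 65, 37, 54 and 60. CSMD1, a membrane protein with complement control domains at 8p23, had 41, 19, 49 and 57 over 2060 kb. NKAIN3, which encodes a partner of the sodium pump, had 48, 27, 38 and 39. SNTG1 (a syntrophin), CSMD3, CNBD1, KCNQ3, NCALD (a neuronal calcium sensor), NRG1 and RALYL completed the first 10, of which CSMD1 and NRG1 are on 8p and the rest on 8q.

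Per length, among the 119 genes with a mean of at least 5 peaks, the order was another, and it was led by a cluster at 133 to 134 Mb on 8q24. Short genes with fewer peaks are not in this order. HHLA1 had 7, 3, 7 and 8 peaks, or 11.2 per 100 kb as the mean of the libraries. The unnamed gene ENSG00000258417 had 8.90 per 100 kb, but it overlaps HHLA1 by 24.2 kb, so these genes share peaks. TMEM71, a membrane protein, had 8.87, KCNQ3, a subunit of the neuronal M-type potassium channel, had 8.05, and TG, which encodes thyroglobulin, had 7.39. All 5 lie in or across the bin from 133 to 134 Mb, and only TG among them was called different between the cell lines.

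The comparison of genes took the 119 chromosome 8 genes with a mean of at least 5 peaks out of 2293 such autosomal genes. Of them, 26 were called higher in RT112 (21.8%, against 10.2% of all genes tested) and 5 higher in UM-UC-3 (4.20%, against 9.46%). The 26 comprised 24 of the 96 tested on 8q, 10 of these on 8q24, and 2 of the 23 tested on 8p. The 5 comprised 4 on 8p and 1 on 8q. Both libraries of RT112 lay above both of UM-UC-3 in 67 of the 119 (56.3%, against 33.1%), and the reverse held in 24 (20.2%, against 33.5%). On 8q the log2 ratio was below 0 in 71 tested genes and above 0 in 25. The tested genes of 8p were mixed, with 10 below 0 and 13 above. Genes lie in the bins and are not separate evidence of a difference between the arms. The gene calls are the least stable of the results: without UM-UC-3 replicate 1, and without UM-UC-3 replicate 2, limma called 0 in either direction, where 22 and 24 were higher in RT112 and 1 and 4 higher in UM-UC-3 at an unadjusted p below 0.05. With either RT112 library left out, more genes were called in both directions. The shares over all genes tested are not given for these fits.

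Genes called higher in RT112 were led by 5 genes on 8q. TG, at chr8:133879203-134147147, had 31, 25, 11 and 14 peaks. As relative density this was 3.36, 4.33, 1.04 and 1.26, so UM-UC-3 was near the mean while RT112 was far above it (log2 ratio -1.65, SE 0.190, limma adjusted p = 0.00527). PKHD1L1, a large membrane protein, had 10, 9, 1 and 3 peaks, with a log2 ratio of -2.56 that rests on few peaks (SE 0.432, limma adjusted p = 0.0101). CHD7, a chromatin remodeler mutated in CHARGE syndrome, had 15, 7, 5 and 5 (log2 ratio -1.47). ZFAT, a zinc finger protein of immune cells, had 18, 12, 8 and 7 (log2 ratio -1.43), and MTSS1, a scaffold between membrane and actin, had 18, 16, 10 and 8 (log2 ratio -1.42). In all 5 the cell lines did not overlap as relative density.

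Genes called higher in UM-UC-3 were 4 of outer and middle 8p and ANGPT1. SGCZ, the zeta subunit of the sarcoglycan complex, at chr8:13942354-15095940, had 12, 7, 30 and 30 peaks. Its relative density was 0.307, 0.287, 0.667 and 0.640, below the mean in both cell lines (log2 ratio 0.93, SE 0.155, limma adjusted p = 0.0101). DLC1, a RhoGAP and tumor suppressor often deleted in liver cancer, had 10, 5, 20 and 20 (log2 ratio 0.81, limma adjusted p = 0.0313). MSR1, a scavenger receptor of macrophages, had 5, 2, 13 and 11 (log2 ratio 1.07). NRG1, a ligand of ERBB3 and ERBB4, had 23, 11, 38 and 38 (log2 ratio 0.59, limma adjusted p = 0.0377). ANGPT1, a ligand of the TIE2 receptor on 8q, had 5, 2, 10 and 12 (log2 ratio 1.06, limma adjusted p = 0.0497). None of these 5 passed when the spread was estimated without its trend on peak number, with 10 genes higher in UM-UC-3 at an unadjusted p below 0.05.

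**Figure D5:**
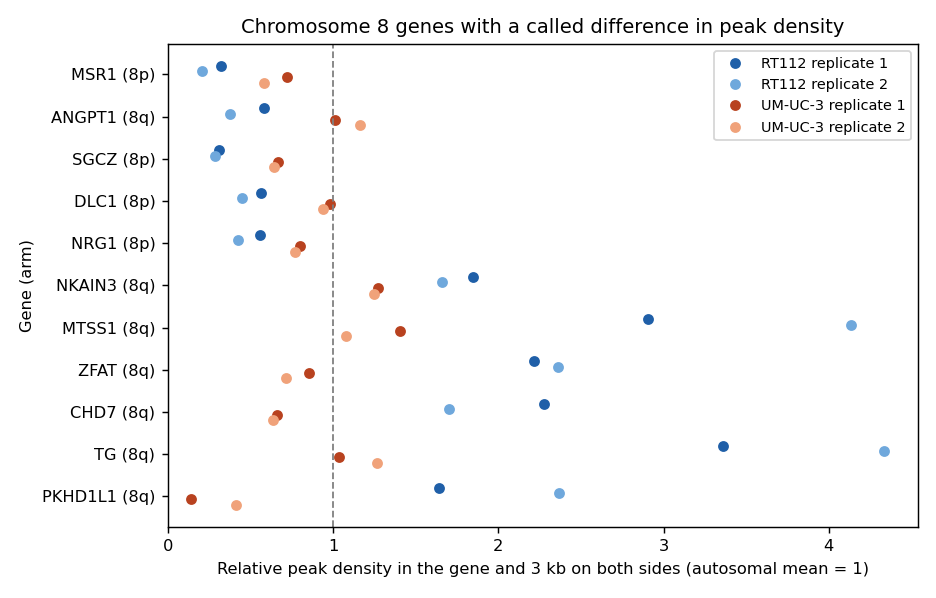
Relative peak density (x axis, autosomal mean = 1) in the gene and 3 kb on both sides for the 11 genes called at an adjusted p below 0.05 among those with the most peaks, the most peaks per length or the largest log2 ratios (y axis, with the arm), with a point for each library. The RT112 points lie to the right of the UM-UC-3 points for the 6 lower genes, all on 8q, and to the left for the 5 upper genes, 4 of them on 8p.

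Lists of genes known from cancer were set beside these results by band, and their few tested members are to be read against the 10.2% of all tested genes called higher in RT112 and the 9.46% called higher in UM-UC-3, or 21.8% and 4.20% on chromosome 8. Of the 14 genes on 8p11 to 8p12, 3 could be tested, and NRG1 was called higher in UM-UC-3. The tested genes of this list had a median log2 ratio of -0.26. Of the 22 on 8p21 to 8p23, 6 could be tested, with SGCZ and DLC1 called higher in UM-UC-3 and MSRA, a repair enzyme for oxidized methionine, higher in RT112 at 14, 10, 10 and 8 peaks (log2 ratio -0.87, limma adjusted p = 0.0424). Their median log2 ratio was 0.55. Of the 28 on 8q11 to 8q23, 15 could be tested, with CHD7 and EYA1, a transcriptional coactivator with phosphatase activity, called higher in RT112, and ANGPT1 higher in UM-UC-3, and a median of -0.49. Of the 26 on 8q24, 8 could be tested and 4 were called higher in RT112, namely TG, EXT1 (heparan sulfate synthesis), ADCY8 (an adenylyl cyclase) and COL22A1 (a collagen), with a median of -0.50. The median over all 2293 genes tested was -0.00292. ZMAT4, a zinc finger gene at 40.4 to 40.8 Mb, was the other 8p gene called higher in RT112, at 18, 10, 11 and 9 peaks, and was named after its values were seen.

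Some genes were looked up for a tie to plasminogen or to cancer of the bladder. PLAT, which encodes tissue plasminogen activator, a direct target of PAI-1, had 1 peak in each of the 4 libraries at chr8:42032236-42065227. FGFR1, a receptor for fibroblast growth factors, had 0, 1, 3 and 4, although the bin it lies in was denser in RT112. NAT2, an arylamine acetyltransferase whose slow variants are a risk factor for bladder cancer, had 1, 0, 1 and 1. The related NAT1 had 0, 0, 4 and 5, but it was not among the genes chosen for this look-up. PSCA, a surface antigen of prostate and bladder with a bladder cancer risk locus, had 0 in all libraries. TPD52, a gene gained with 8q in several cancers, had 7, 1, 9 and 10 and did not pass the test (log2 ratio 1.06, SE 0.532, limma adjusted p = 0.186). Apart from TPD52 these genes were below the minimum for the test.

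The study's lists of genes next to peaks that also rose after PAI-1 knockdown hold 17 chromosome 8 genes for UM-UC-3 and 20 for RT112. They were chosen in part on these peaks and are no independent evidence. In the first, 6 could be tested and 1 was called higher in RT112. In the second, 12 could be tested, with 4 called higher in RT112 and 1 lower there. Over all genes tested the shares were 10.2% and 9.46%, and on chromosome 8 they were 21.8% and 4.20%. The 2 chromosome 8 genes on both lists were SLC26A7, an anion transporter with 6, 3, 9 and 11 peaks (log2 ratio 0.60, limma adjusted p = 0.173), and LY6H, a neuronal GPI-anchored protein with 1, 0, 0 and 0.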

How the data were processed

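Peak lists of 4 PAI-1 ChIP libraries were analysed, grouped by cell line from the sample labels. The authors mapped reads to hg19 with Bowtie 1.1.1, removed duplicates with Picard and called peaks with MACS2 2.1.0.20140616. The use of the input in calling, the threshold of the deposited lists and any pooling are not given in the sources used here. The study states an FDR cutoff in a figure legend for what it calls probe sets, and its relation to these lists is not explained there. The deposited score is on a −log10 scale of the caller's p-values or q-values, and the lists do not say of which. Chromosome ends fitted the GRCh37 reference, on which peaks were counted, and genes came from GENCODE 44.

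Relative density was computed with Python 3.11.15, numpy 2.4.6, pandas 2.3.3 and scipy 1.17.1. Figures used matplotlib 3.10.9. Regions were compared by exact two-sided permutation tests. Bins with at least 0.5 Mb of sequence, arms of at least 5 Mb and genes with a mean of at least 5 peaks were fitted over all autosomes with limma 3.58.1 in R 4.3.3. The scale was log2 (relative density + 0.1) for bins and genes and log2 relative density for arms. The fits had a trend of the spread on the mean number of peaks, and p-values were adjusted by Benjamini-Hochberg at 0.05. Fold changes of sparse bins and genes are understated by the added 0.1. The trend was first taken on the mean density, with which no gene was recovered in simulated data, so it was changed, and the earlier form was kept as an alternative. In simulated data with the final form, 74% of 2-fold and 97% of 4-fold changed bins were recovered, and 26% and 79% of genes. The simulated counts were independent Poisson draws around the real means, and real replicates may vary otherwise. Changes were placed only in bins and genes with more peaks than the minimum set for genes. These shares may therefore overstate the recovery among the bins and genes reported.

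Named genes were the 10 with the most peaks, the 5 with the most per 100 kb among those with a mean of at least 5 peaks, the 5 with the largest and the 5 with the smallest log2 ratio among those called, and members of the band lists and of the study's common list. Named peaks were the 3 with the best mean rank per cell line and the 3 with the highest lowest score in all 4 libraries, and named bins the 3 densest per cell line and the 3 most extreme called ones in each direction. Members, lists and rules were chosen with earlier results of these data known. Alternatives changed the peaks counted, the libraries, the reference density, the pseudocount, the bin size and the filters. Sequences are not shown.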

Additional observations from a re-analysis of the deposited data

How the results depend on the processing

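The higher density of RT112 on chromosome 8, 8q and 8q24, the lower one on 8p and the wider ratio of 8q to 8p kept their direction under every alternative run, and 8p and 8q were called in the fit of arms under each of its alternatives. The ratio of 8q24 to the rest of 8q turned to a difference of -0.000709 with refound peaks. The difference in median score was 0 among peaks with a score of at least 5 and ranged from -0.347 to 0 with a library left out, being 0 without RT112 replicate 1, so it rests on that library. Calls among bins (higher in UM-UC-3, then higher in RT112) were 41 and 101 with refound peaks, which are by construction alike in both replicates, 7 and 41 in bins of 2 Mb, and 20 higher in UM-UC-3 in bins of 0.5 Mb. Leaving out a library gave 1 to 21 and 6 to 77. Calls among genes were 2 and 17 with scores of at least 5, 26 and 49 with refound peaks, 0 and 14 without a trend, 0 and 16 with the trend on mean density (the form run first, while the reported form, on peak number, was chosen after seeing the data), 9 higher in RT112 with a mean of at least 2 peaks, and 59 and 50 with no filter. Leaving out a library gave 0 to 17 and 0 to 46. Beside the counts of 0, an unadjusted p below 0.05 in limma was reached by 10 genes without a trend and by 9 with the trend on mean density. Nothing in the labels pairs libraries of equal number (correlation of deviations 0.0122 over autosomal bins). With a replicate block the calls were 17 and 66 among bins and 0 and 0 among genes, where 9 and 40 reached an unadjusted p below 0.05. The exact paired test, which cannot go below 0.5, gave p = 0.5 for the 8q to 8p ratio and left the differences between the means as they were. Among single items, HHLA1 had log2 ratios from -0.13 to 0.39 with a library left out, and the bin from 138 to 139 Mb had -0.26 with scores of at least 5 and from -0.078 to 0.13 with a library left out, none of them called. The cause of these changes was not tested. With 2 libraries per cell line and no read counts, precision is limited by the number of libraries and the number of peaks per bin or gene.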
